A study of Homo sapiens with 6 samples.

Results

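The AFF genes encode the scaffold proteins of the super elongation complex, and the 10 genes described here are the 4 AFF paralogs AFF1, AFF2, AFF3 and AFF4 with 6 genes for their partners: the elongation factors ELL and ELL2, the chromatin readers MLLT1 and MLLT3, the kinase CDK9 and its cyclin CCNT1. All 10 were found by symbol among the 60605 genes of the deposited table. AFF2 was chosen because its counts fell in the comparison reported here, so its values are given as a description with no test. The other 9 were listed beside it by family and complex. They were measured by poly(A) RNA sequencing in SW620, an established human colorectal cancer cell line, in a study of what overexpression of ELAPOR1, a transmembrane protein of the endosomal and lysosomal system, does to gene expression. Cells of both groups were infected with lentivirus at a multiplicity of 20 and selected with puromycin at 2 ug/ml; the genotype was ELAPOR1 overexpression from pLVX-IRES-Puro-ELAPOR1 in 3 libraries and empty vector in the other 3, with no further treatment. The labels leave unsaid whether libraries of a group came from separate infections or cultures. The p-values therefore measure the spread between libraries alone, and that spread may be technical.

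RNA polymerase II pauses soon after it starts a gene, held by the factors NELF and DSIF. The super elongation complex brings P-TEFb, the pair of CDK9 with a T-type cyclin, to the paused enzyme, where CDK9 phosphorylates the polymerase and the pausing factors, while ELL proteins speed the moving polymerase. AFF1 and AFF4 are the best known scaffolds of the complex, AFF2 and AFF3 build related complexes with the same kinase, and AFF1, AFF4, ELL, MLLT1 and MLLT3 are fused to KMT2A in leukaemias.

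The 6 libraries held between 16401813 and 20571924 counts. ELAPOR1 itself rose from 10.4 ± 1.47 to 21126 ± 361.5 CPM (counts scaled by library total and TMM factors; SD, n = 3 per group), which matches the labels of all 6 libraries. Of 16003 genes with enough counts to test, edgeR's quasi-likelihood test with Benjamini-Hochberg adjustment called 3427 at an adjusted p under 0.05, which is 21.4%; 1607 were higher with ELAPOR1 (10.0%) and 1820 lower (11.4%). The split was 727 higher and 1406 lower with limma on log2(FPKM + 1). Summed CPM of 10 colon epithelial markers lay between 8015 and 8432 in vector libraries and between 7608 and 7622 in ELAPOR1 libraries. Of 9 of these that could be tested, 1 rose (CDH17, an intestinal cadherin, log2 fold change 1.05) and 4 fell (log2 fold changes of -1.67 for KRT20, -0.56 for CDX2, -0.45 for KRT19 and -0.14 for KRT8), and EPCAM, KRT18, VIL1 and LGALS4 did not pass. Summed CPM of 15 markers of fibroblast, immune, endothelial and neural cells lay between 25.8 and 27.9 in vector libraries and between 34.5 and 41.1 in ELAPOR1 libraries, with 3 to 5 of the 15 at 0 in each library and CDH5 at 0 in all 6. Of the 8 that could be tested, 1 was called, LUM, which rose by 0.64 on the log2 scale, and the part of either marker list in the results on the AFF genes and their partners was not tested. In bulk RNA, fewer cells that express a gene and less RNA of it per cell cannot be told apart.

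The 4 AFF genes are paralogs, so the stretches that they share decide whether a read can be assigned to AFF2. In the longest GENCODE 29 coding sequences, 3654 bases for AFF1, 3933 for AFF2, 3753 for AFF3 and 3489 for AFF4, no run of 25 bases was common to any pair of them. AFF2 was counted over 14241 exonic bases, most of which lie outside the coding sequence and were not compared. The coding sequences were not aligned, so their likeness over the whole length was not measured. The longest identical stretch of each AFF2 pair is shown in capitals within 25 coding bases on each side. Positions are counted from the A of the start codon on the coding strand.
AFF2 (coding bases 3786 to 3848): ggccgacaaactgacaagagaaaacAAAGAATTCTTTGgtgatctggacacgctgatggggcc
AFF1 (coding bases 3507 to 3569): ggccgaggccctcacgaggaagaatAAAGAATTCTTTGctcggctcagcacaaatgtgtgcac
AFF2 (coding bases 2382 to 2445): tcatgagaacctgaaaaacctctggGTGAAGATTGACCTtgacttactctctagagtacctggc
AFF4 (coding bases 2121 to 2184): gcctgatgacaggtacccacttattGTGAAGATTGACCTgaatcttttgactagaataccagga
AFF2 (coding bases 1038 to 1104): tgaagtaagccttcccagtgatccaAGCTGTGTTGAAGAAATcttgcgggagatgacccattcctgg
AFF3 (coding bases 948 to 1014): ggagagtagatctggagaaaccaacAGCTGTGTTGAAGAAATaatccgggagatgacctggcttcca
The identical stretch measured 13 bases between AFF2 and AFF1, 14 between AFF2 and AFF4 and 17 between AFF2 and AFF3. AFF1 and AFF4, the pair with most RNA in these cells, shared at most 16 bases in a row. The AFF1 and AFF2 coding sequences shared no run of 25 bases with any other GENCODE 29 gene, and AFF4 shared 10 such runs, all with AC055753.1.

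AFF2 (FMR2 in older usage), a nuclear scaffold whose silencing by a repeat expansion causes the FRAXE form of intellectual disability, spans X:148500617-149000663 on the plus strand, ENSG00000155966, in GRCh38 coordinates of the deposited table. It had 170, 144 and 117 counts in the 3 vector libraries and 12, 8 and 19 in the 3 ELAPOR1 libraries. On the CPM scale these were 8.68, 6.97 and 7.10 with vector and 0.738, 0.418 and 1.07 with ELAPOR1. Each vector library was above every ELAPOR1 library, and the lowest vector value was far above the highest ELAPOR1 value. The fitted log2 fold change was -3.36 (SE 0.26, 95% interval -3.87 to -2.84, n = 3 per group), a level 10.3-fold lower. Because AFF2 was chosen by this fall, its size may be overstated, and the interval is no test of it. Among the 16003 tested genes this was the sixth lowest log2 fold change, and among the 14288 that averaged 1 CPM or more the fourth lowest. A low rank follows from the choice of AFF2 by its fall and is no separate result. Its mean was 7.58 CPM with vector and 0.741 with ELAPOR1, so the vector libraries carried it past the limit of 1 CPM.

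With few AFF2 reads in the ELAPOR1 libraries, the size of the difference moved with the library left out, from -3.73 without ELAPOR1 replicate 3 to -3.05 without ELAPOR1 replicate 2, and stayed on the same side of 0. The 2 genes annotated inside AFF2, AFF2-IT1 on the same strand and RN7SKP267 on the opposite strand, had no count in any library. GENCODE 29 lists 5 transcripts of AFF2, of which 4 start close to the 5′ end of the gene. The other starts 218472 bases further in, at the RefSeq start that was read here for AFF2. Any further RefSeq starts of the gene were not read. Counts per gene do not separate the transcripts. GENCODE 29 may not be the annotation used for the counting. It starts AFF2 at 148500619, where the deposited table has 148500617. For AFF3 the highest coordinate is 100142739 in GENCODE 29 and 100192428 in the deposited table. Of the genes described here, only CCNT1 had the same coordinates in both.

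The nearest tested genes on both sides of AFF2 did not show a difference of that size. FMR1, which encodes an RNA-binding protein of neurons and is 549 kb away towards lower coordinates, had 35.2, 31.0 and 37.0 CPM with vector and 36.5, 37.6 and 35.5 with ELAPOR1 (log2 fold change 0.09, SE 0.074, adjusted p = 0.438). IDS, a lysosomal sulfatase gene 476 kb away on the other side, had 3.78, 3.44 and 3.88 CPM with vector and 4.37, 2.61 and 2.24 with ELAPOR1 (log2 fold change -0.28, SE 0.24, adjusted p = 0.476). The groups overlapped for both neighbours. No test compared AFF2 with them.

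**Figure D1:**
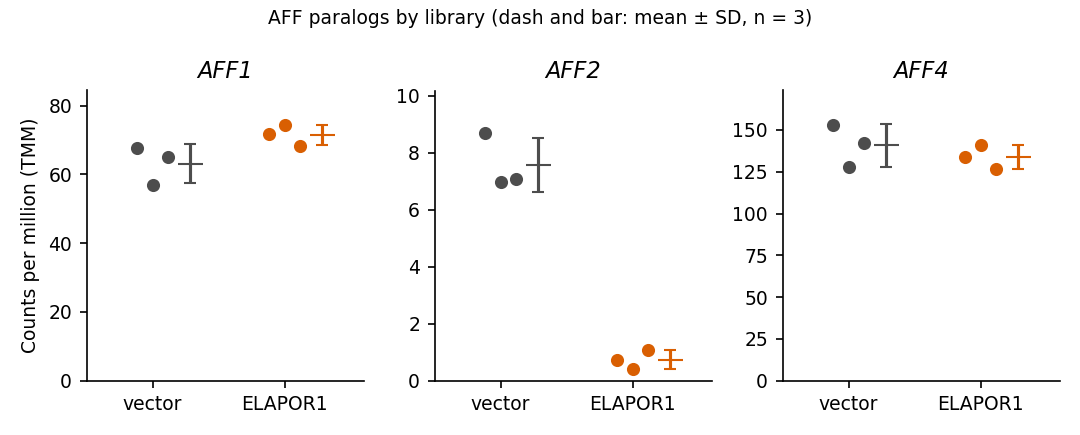
Counts scaled to CPM of AFF1, AFF2 and AFF4 in each of the 3 vector and 3 ELAPOR1 libraries; each panel has its own vertical axis starting at 0, points are libraries, and the dash with its bar is the mean ± SD. The AFF2 points lie between 6.97 and 8.68 with vector and between 0.418 and 1.07 with ELAPOR1, the AFF1 groups are separate but close, and the AFF4 groups overlap.

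AFF1 was the only one of the 8 tested genes besides AFF2 that passed the threshold, and it was higher with ELAPOR1. AFF1, the scaffold also known as AF4, spans 4:86935002-87141039 on the plus strand, ENSG00000172493. Its level was 67.6, 56.8 and 65.0 CPM with vector and 71.8, 74.4 and 68.3 CPM with ELAPOR1. All 3 ELAPOR1 libraries lay above all 3 vector libraries, but the highest vector value and the lowest ELAPOR1 value were less than 1 CPM apart. The rise was 0.18 on the log2 scale (SE 0.056, 95% interval 0.07 to 0.29, adjusted p = 0.0132, edgeR's quasi-likelihood test with Benjamini-Hochberg adjustment). Vector replicate 2 was the lowest library, and without it the log2 fold change was 0.11 and the adjusted p 0.239. Without ELAPOR1 replicate 2, the highest library, they were 0.15 and 0.103. DESeq2 with default settings, as run here, gave an adjusted p of 0.0800. The authors' deposited table lists AFF1 at 0.18 with an adjusted p of 0.0246, and their processing notes also name DESeq2.

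On the opposite strand AFF1 overlaps TECRP1, with 92 counts over all 6 libraries, ENSG00000285458, with 37, and ENSG00000284968, with 348, beside 7378 counts for AFF1. ENSG00000284968 also rose, by 0.76 on the log2 scale (adjusted p = 0.0162), from 51, 53 and 31 counts with vector to 76, 68 and 69 with ELAPOR1. The strand setting of the counting is not stated, so it is unknown how reads from the overlap were counted.

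AFF4, the scaffold around which the super elongation complex was first described, had the highest level of the 4 paralogs. It spans 5:132875395-132963634 on the minus strand, ENSG00000072364. It had 153, 128 and 142 CPM with vector and 134, 141 and 127 CPM with ELAPOR1, and the groups overlapped. The log2 fold change was -0.07 (SE 0.045, 95% interval -0.16 to 0.02, adjusted p = 0.272). Vector replicate 2 was again the lowest vector library, and without it the difference became -0.14 with an adjusted p of 0.0226. AFF3, the paralog best known from lymphoid cells and brain (2:99545419-100192428 on the minus strand, ENSG00000144218), had 1 count in vector replicate 1 and none in the other 5 libraries. It was not tested. Over the 3 ELAPOR1 libraries a count of 0 allows up to 3 counts, which is 0.0559 CPM by library totals, for counting error only.

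Because the 3 scaffolds lie on different scales, they were also set side by side per exonic length, as FPKM, the deposited count scaled by length and library total. AFF2 made up 3.00%, 2.88% and 2.62% of the summed AFF FPKM in the vector libraries and 0.281%, 0.152% and 0.427% in the ELAPOR1 libraries. The share of AFF1 was 30.7% ± 0.464 with vector and 35.4% ± 0.206 with ELAPOR1, and that of AFF4 was 66.5% ± 0.265 and 64.3% ± 0.336 (SD, n = 3). Summed FPKM of the 4 genes was 18.9 ± 1.75 with vector and 18.3 ± 0.897 with ELAPOR1, with overlapping ranges. AFF2 was thus a small part of the AFF RNA in the vector cells already.

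The ratio of AFF1 to AFF4, which does not depend on the scaling of a library, was computed after the values of both genes had been seen. It was 0.455, 0.459 and 0.472 in the vector libraries and 0.553, 0.544 and 0.556 in the ELAPOR1 libraries. The groups did not overlap, and their means of 0.462 ± 0.0088 and 0.551 ± 0.0060 differed by 0.25 on the log2 scale. An exact two-sided permutation test gave p = 0.1, the smallest that 3 libraries against 3 allow. Groups that do not overlap always give this value. As the ratio was picked from values already seen, the p-value is no separate support for the difference.

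**Figure D2:**
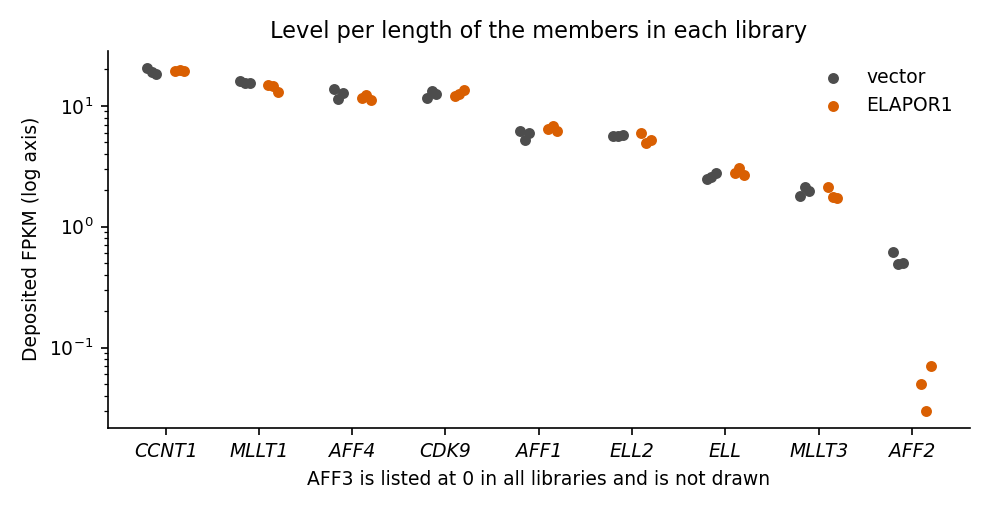
Deposited FPKM (log axis) of 9 genes in each library, ordered by their mean with vector; grey points are vector and orange points ELAPOR1 libraries, and AFF3 is not drawn. CCNT1 is highest at 19.3 with vector, and AFF2 is lowest at 0.537 with vector and 0.05 with ELAPOR1.

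The order of mean levels was the same in both groups, apart from AFF4 and CDK9, whose ranges overlapped in both. With ELAPOR1 the ranges of MLLT1 (12.9 to 14.7 FPKM) and CDK9 (12.01 to 13.6) overlapped too, and CDK9 was above MLLT1 in ELAPOR1 replicate 3. Per length, CCNT1 was highest (19.3 ± 1.13 FPKM with vector), followed by MLLT1 (15.6 ± 0.293), AFF4 (12.6 ± 1.17) and CDK9 (12.5 ± 0.872). AFF1 (5.80 ± 0.526) and ELL2 (5.69 ± 0.071) overlapped with vector and were separate with ELAPOR1, at 6.47 ± 0.285 and 5.40 ± 0.52. ELL (2.62 ± 0.163), MLLT3 (1.96 ± 0.156) and AFF2 (0.537 ± 0.072) came below them, each apart from its neighbours in the order. These are levels with no test between genes.

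The ELL factors increase the rate of transcription, and neither passed the test. ELL (19:18442663-18522116 on the minus strand, ENSG00000105656) had 12.1, 12.7 and 13.7 CPM with vector and 13.8, 15.2 and 13.4 CPM with ELAPOR1 (log2 fold change 0.14, SE 0.11, 95% interval -0.08 to 0.37, adjusted p = 0.409). ELL2 (5:95885098-95961851 on the minus strand, ENSG00000118985), the ELL factor known for driving immunoglobulin secretion in plasma cells, had 39.7, 40.2 and 40.8 CPM with vector and 43.1, 35.6 and 37.8 CPM with ELAPOR1 (log2 fold change -0.06, adjusted p = 0.660). Groups overlapped for both. ELL2 shared 840 of the 1896 runs of 25 bases in its coding sequence with the pseudogenes ELL2P1 and ELL2P3, which had 9 counts and 0 counts over all libraries, so its counts are uncertain to the extent that reads matching more than 1 copy were left out.

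MLLT1 and MLLT3, also called ENL and AF9, bind acylated histone tails through a YEATS domain and dock the complex on chromatin. Their longest identical coding stretch, 17 bases, lies near the start of the coding sequence, at the same coding position in both.
MLLT1 (coding bases 63 to 129): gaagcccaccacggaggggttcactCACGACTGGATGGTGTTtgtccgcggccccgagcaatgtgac
MLLT3 (coding bases 63 to 129): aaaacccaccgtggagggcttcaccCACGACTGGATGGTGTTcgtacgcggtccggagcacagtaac
MLLT1 (19:6210381-6279975 on the minus strand, ENSG00000130382) had 75.3, 73.2 and 73.3 CPM with vector and 71.1, 70.0 and 62.1 CPM with ELAPOR1. Every ELAPOR1 library was below every vector library, with ELAPOR1 replicate 3 lowest. The log2 fold change of -0.13 (SE 0.054, 95% interval -0.24 to -0.02) did not pass the test, with an adjusted p of 0.0809, and it did when libraries were scaled by their totals alone (-0.15, adjusted p = 0.0360). MLLT3 (9:20341669-20622499 on the minus strand, ENSG00000171843) had 14.4, 16.9 and 15.9 CPM with vector and 17.3, 14.4 and 14.2 CPM with ELAPOR1, with overlapping groups (log2 fold change -0.05, adjusted p = 0.831). The share of MLLT1 in the summed FPKM of the pair was 88.8% ± 0.951 with vector and 88.2% ± 0.898 with ELAPOR1 (SD, n = 3).

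CDK9 and CCNT1 form P-TEFb, the kinase at the centre of the complex. CDK9 (9:127785679-127790792 on the plus strand, ENSG00000136807) had 34.6, 39.99 and 37.7 CPM with vector and 36.5, 37.9 and 41.2 CPM with ELAPOR1 (log2 fold change 0.04, SE 0.072, 95% interval -0.10 to 0.19, adjusted p = 0.752). CCNT1 (12:48688458-48716998 on the minus strand, ENSG00000129315) had 151, 139 and 135 CPM with vector and 146 in each ELAPOR1 library (log2 fold change 0.04, SE 0.041, 95% interval -0.04 to 0.12, adjusted p = 0.552). Neither passed the test and the groups overlapped for both. CDK9 made up 39.3% of the summed FPKM of the pair in both groups.

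Of the 8 tested genes other than AFF2, 1 passed the threshold and was higher, none was lower, and 7 did not pass, where 21.4% of all tested genes passed. Groups did not overlap for 2 of the 8, AFF1 and MLLT1, against 33.8% of all tested genes. With counts this small neither share is a result about these genes. The median log2 fold change of the 8 was -0.00 and their range -0.13 to 0.18, beside a median of 0.00 and quartiles of -0.13 and 0.15 over all tested genes. Their 95% intervals together ran from -0.26 to 0.37, so none of them reached the size of the AFF2 difference. AFF2 was chosen by its fall, so this contrast follows in part from the choice.

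**Figure D3:**
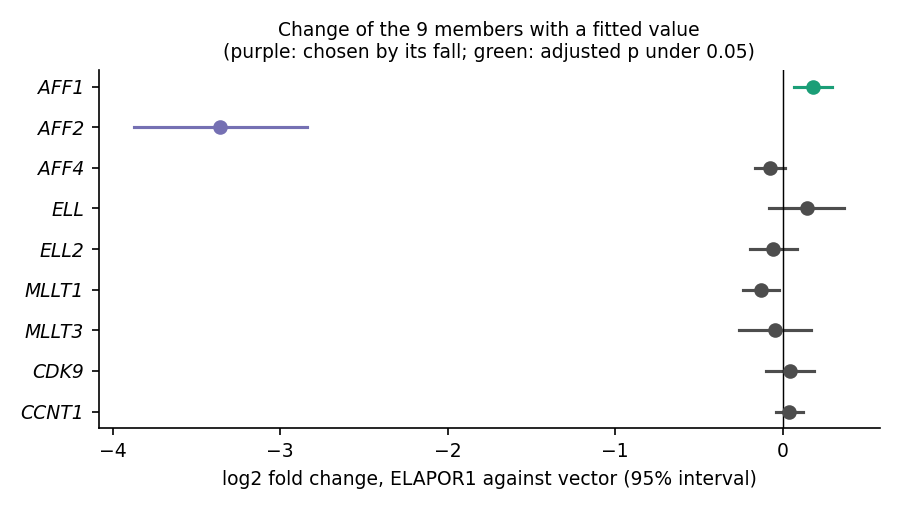
Fitted log2 fold change, ELAPOR1 against vector, of the 9 genes with a fitted value; points are estimates, bars are 95% intervals, green marks an adjusted p under 0.05 and purple marks AFF2, which was chosen by its fall. AFF2 lies at -3.36 and the other 8 between -0.13 and 0.18.

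Genes that work with the complex were read from the same fit by role. In all, 48 genes of the elongation machinery were tested, of which 2 rose and 11 fell, 27.1% beside 21.4% of all tested genes (10.0% higher and 11.4% lower), with a median log2 fold change of -0.04 beside 0.00 for all genes. Together with 12 genes whose transcription is known to be controlled at the pause, 60 genes gave 4 rises and 16 falls, 33.3% beside the same 21.4%. The 20 calls became 9 in limma without a filter on low values and 14 to 19 with a library left out. The lists were not matched to all tested genes by level, and the part of level in these shares was not tested. The groups and examples are as follows, and no test compared a list with the other genes.

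Among other ELL and EAF factors, which bind each other, none of 3 was called; ELL3 had 2.82 ± 0.545 CPM with vector and 3.99 ± 0.33 with ELAPOR1 (SD, n = 3; log2 fold change 0.49, adjusted p = 0.130). CCNT2, the other T-type cyclin, had 70.1 ± 1.23 and 70.1 ± 0.997 CPM. Of 9 genes that hold P-TEFb inactive in the 7SK particle or release it, 2 fell: JMJD6, a factor for the release of P-TEFb (-0.41 on the log2 scale, adjusted p = 7.55e-06), and DDX21, an RNA helicase that also works in ribosome synthesis (-0.13, adjusted p = 6.52e-05). HEXIM1, the inhibitor of CDK9 in that particle, was at -0.07 (adjusted p = 0.375) and its partner LARP7 at 0.06 (adjusted p = 0.616), neither of which passed.

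Of the 6 subunits of NELF and DSIF, NELFCD fell by 0.36 on the log2 scale (adjusted p = 0.00292), from 22.5 ± 0.259 to 17.5 ± 1.86 CPM, and the other 5 did not pass. Of 11 genes of the PAF1 complex and its partners, the histone chaperone SUPT6H rose by 0.16 (adjusted p = 0.00158) and TCEA1, the factor that rescues a backtracked polymerase, fell by 0.32 (from 250 ± 3.48 to 199.8 ± 5.77 CPM). The SUPT6H call was lost in the 3 limma fits (adjusted p of 0.0774, 0.0795 and 0.133). None of the 3 genes of the little elongation complex, which serves small nuclear RNA genes, was called, and ICE1 had the smallest p (log2 fold change -0.08, adjusted p = 0.174).

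DOT1L, the histone H3 methyltransferase that MLLT1 and MLLT3 also bind, fell by 0.24 on the log2 scale (adjusted p = 0.00292), from 50.6 ± 0.71 to 42.9 ± 1.27 CPM. In its list of 7 fusion partners and cofactors, 3 fell, DOT1L among them, and 1 rose. That was 57.1% beside 21.4% of all tested genes (10.0% higher and 11.4% lower). The Polycomb reader CBX8 fell by 0.25 and PSIP1, which tethers KMT2A, by 0.15, while MLLT10, a DOT1L partner, rose by 0.19. The calls of CBX8 and MLLT10 were lost in the 3 limma fits. They were also lost with some libraries left out, such as vector replicate 3 (edgeR adjusted p of 0.0762 and 0.0599). KMT2A itself had 186.6 ± 18.7 CPM with vector and 182.7 ± 12.7 CPM with ELAPOR1 (log2 fold change -0.03, adjusted p = 0.690). Of 8 other genes for kinases of transcription and their cyclins, 4 fell and none rose, where 11.4% of all tested genes fell, with a list median of -0.11: CCNH (-0.21) and MNAT1 (-0.17) of the CDK7 kinase and CDK8 (-0.17) and CCNC (-0.13) of the Mediator kinase. With DESeq2 the calls of MNAT1 (adjusted p = 0.125), CDK8 (0.0616) and CCNC (0.0959) were lost, and each of the 3 was also lost with some libraries left out.

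Of the 12 genes known for control at the pause, 2 rose and 5 fell, where 10.0% of all tested genes rose and 11.4% fell, with a list median of -0.16. The transcription factors JUNB (-0.29), EGR1 (-0.17) and JUN (-0.16) and the survival factor MCL1 (-0.25) fell, and MYC rose by 0.13 on the log2 scale. The JUNB call was lost without vector replicate 1 or without vector replicate 2 (edgeR adjusted p of 0.0550 and 0.0501). FOS, from the same class of early genes, had 3.94 ± 0.875 and 2.85 ± 0.678 CPM and was not called (log2 fold change -0.48, adjusted p = 0.156). The heat shock genes HSPA1A (0.42) and HSPA1B (-0.31) were called in opposite directions. They are near-identical copies, and a read can match both, so both are uncertain. The HSPA1B call was lost with DESeq2 (adjusted p = 0.0934) and with some libraries left out, such as vector replicate 3 (edgeR adjusted p = 0.109).

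**Figure D4:**
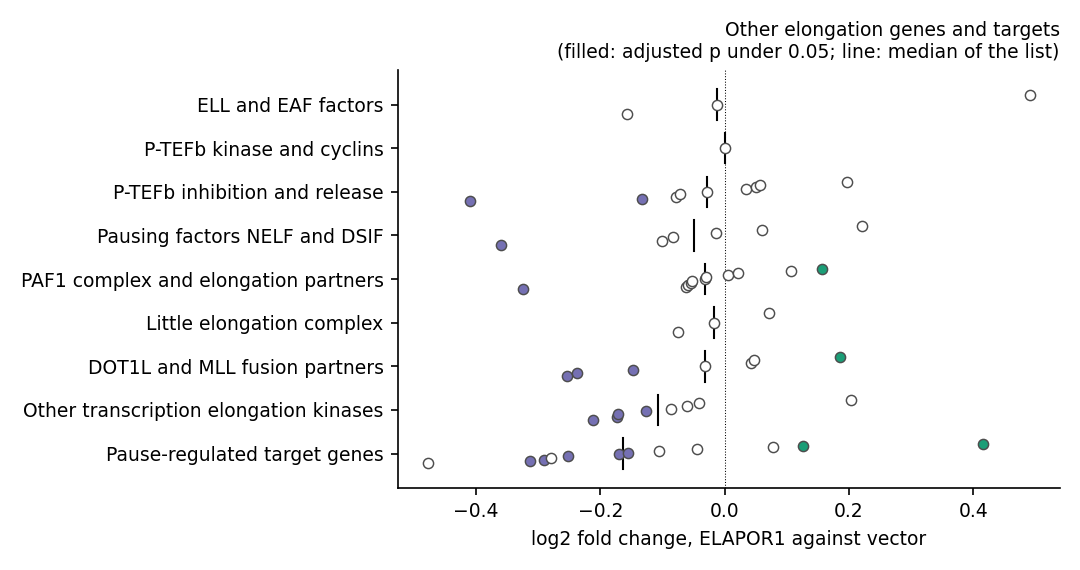
Log2 fold change, ELAPOR1 against vector, of 60 tested elongation genes and target genes by list, without the 10 genes of the main set; filled points have an adjusted p under 0.05 (green higher, purple lower), open points do not, and the short line is the median of a list. List medians lie between -0.16 and 0.00, and the pause-regulated genes have the lowest.

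The 5 genes whose profile over the 6 libraries was most like that of AFF2 were taken by the smallest root mean square difference of centred log2(CPM + 0.5), among tested genes that averaged 1 CPM or more. They were CACNA1E, a neuronal calcium channel subunit (difference 0.234), CEACAM5, the carcinoembryonic antigen (0.274), ONECUT3, a homeobox factor (0.307), NDRG1, a stress-responsive gene (0.324), and EPN2, an endocytic adaptor (0.424). CACNA1E had 7.47 ± 0.605 CPM with vector and 0.46 ± 0.181 with ELAPOR1, close to the AFF2 values on both sides. ONECUT3 went from 4.36 ± 1.42 to 0.192 ± 0.076 CPM and NDRG1 from 29.6 ± 4.85 to 5.89 ± 2.57 CPM. Like AFF2, CACNA1E and ONECUT3 passed the limit of 1 CPM only through the vector libraries. CEACAM5 went from 96.3 ± 2.93 to 11.98 ± 0.581 CPM and EPN2 from 140.5 ± 6.25 to 13.0 ± 0.472 CPM, at far higher levels. CEACAM5 has close copies in its family, so its counts are uncertain. The likeness is a description over 6 libraries, most of it the difference between the groups, and none of the 5 belongs to the elongation lists.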

How the data were processed

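The authors deposited read counts per gene, not normalized, with exonic gene lengths and FPKM values. Per the submitters' processing notes, the tools were HTSeq 0.6.1, HISAT2 2.0.1, cutadapt 1.9.1 and DESeq2, with the GRCh38 build; the annotation and strand setting are not given in the sources used here. Recomputing FPKM from count, length and library total gave all 142222 deposited non-zero entries to within 0.01. The authors deposited, for their own comparison, p-values and log2 fold changes, with mean scaled counts (a signal column) and a test score that were not used. Libraries were matched by column name, K read as ELAPOR1 (older symbol KIAA1324) and NC as the vector control; 0 value columns had no sample.

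The test on counts used R 4.3.3 with edgeR 4.0.16 (TMM, filterByExpr, quasi-likelihood test, Benjamini-Hochberg over 16003 genes, adjusted p under 0.05, two-sided). Each SE is the size of the log2 fold change divided by the root of its F. Library totals were 19410332, 20571924 and 16401813 with vector and 16457436, 19268166 and 17984626 with ELAPOR1. All 6 libraries were counted separately. Library pairs of 1 group had a chi-square per gene of 2.44 to 3.65, above the 1 of sampling noise. Such values do not tell separate cultures from separate library preparations. The code was tested on simulated counts.

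The genes, lists and tests were chosen with earlier results of these data known. Named are all 10 genes, from each list up to 3 called genes with the largest change (or the smallest p), the 5 nearest profiles and 2 neighbours of AFF2, and ELAPOR1. PSIP1, CCNC, MYC, JUN, EGR1, MCL1, FOS, KMT2A, CCNT2, HEXIM1, LARP7, the cell type markers and the overlapping genes were named after their values were seen. Alternatives were DESeq2 1.42.0, RLE factors, library totals alone, other filters, a replicate block, limma 3.58.1 on log2(FPKM + 1) or log2(FPKM + 0.1), a stricter threshold and each library left out.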

Additional observations from a re-analysis of the deposited data

How the results depend on the processing

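The number of genes called, 3427, dropped to 2364 with DESeq2 as run here and to 3053 in edgeR without a filter on low counts. In limma it was 2133 with 1 added to FPKM, 2098 with 0.1 added and 1378 with 1 added and no filter. It was 2245 at an adjusted p under 0.01, and 2723 to 3187 with each library left out. Of the AFF genes and partners other than AFF2, 1 was called. That number was 0 with DESeq2 as run here, 0 with the 3 limma fits and 0 at an adjusted p under 0.01. It was 2 with library totals alone and 0 to 1 with a library left out. The authors' deposited values, whose processing notes name DESeq2, list AFF1 at an adjusted p of 0.0246. The AFF2 difference of -3.36 became -0.55 in limma on log2(FPKM + 1) without a filter, a scale that understates changes of low genes, and ran from -3.73 to -3.05 with a library left out. Of 60 other elongation and target genes, 20 were called, 9 with limma without a filter and 14 to 19 with a library left out. Over the 8 tested genes besides AFF2, 107 of 120 values under alternatives kept their direction and side of the threshold, 6 lost a call (AFF1) and 2 gained one (AFF4, MLLT1). The other 5 were uncalled values near 0 that changed sign with a library left out, in ELL2 (range -0.14 to 0.0045), MLLT3 (-0.14 to 0.013) and CDK9 (-0.015 to 0.095). Of 504 values for 34 genes outside the set, 53 lost a call, MNAT1 and CCNC most often, and 7 changed sign, all of them for CCNT2, which was not called and lay at -0.00: 0.0015 with RLE factors, 0.00067 with the filter of 10 counts, 0.00030 with the replicate block and -0.015 to 0.0088 with a library left out. The AFF1 to AFF4 difference of 0.25, with the libraries left out in turn after the data had been seen, ran from 0.24 to 0.27. Same-numbered libraries did not deviate together (correlations -0.02, -0.03 and -0.02), and a replicate block gave 3361 calls, 1 of them among the 8, and ended the call of MNAT1 (adjusted p = 0.0537). Groups of 3, and 8 to 19 counts of AFF2 in each ELAPOR1 library, limit the precision.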
